A study of Mus musculus with 12 samples.

Results

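The change that came with pregnancy in lavage macrophages was set against the change that came with estradiol in a macrophage line, gene by gene, to describe which genes and functions moved alike and which did not. All 12 of the 12 samples entered this comparison, 3 in each of 4 groups: unstimulated RAW264.7 cells, RAW264.7 cells kept overnight in estradiol (1 ug/mL), alveolar macrophages washed from the lungs of control mice, and the same cells from pregnant mice. The line RAW264.7 is a virus-transformed murine macrophage line kept in culture, and both of its groups came from this 1 line. RNA was taken from the lavage cells directly, without culture. The labels carry the estradiol treatment text on every sample, the lavage samples included, and the design text calls the untreated cultures vehicle-treated; groups were taken from the group label. Strain, age, gestational stage and the control animals' sex are not in the labels, nor is it stated that replicates were separate cultures or animals. The p-values therefore reflect the spread among these samples alone, and that spread may be technical. Each of the 12393 measured genes was represented by 1 probe set, the brightest over all arrays among those paired with a single symbol.

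Estradiol acts mainly through nuclear estrogen receptors, which bind DNA or other transcription factors and raise or lower the transcription of their targets. Macrophages of several tissues carry these receptors at low levels, and estrogens are known to alter inflammatory gene expression and lipid handling in them. Pregnancy raises estrogens together with progesterone, placental hormones and glucocorticoids, and also changes blood flow, breathing and metabolism, so it is not the same stimulus as estradiol in a dish. Alveolar macrophages live on the airway surface, clear surfactant and inhaled particles, and differ in their resting gene expression from macrophage lines.

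The lavage samples carried the defining genes of alveolar macrophages: all 21 measured members of an alveolar macrophage list were above the dim level on the lavage arrays, against 9 of 21 on the cell-line arrays. Dim means that, of the 6 arrays of a source, fewer than 3 gave the gene an intensity over the 40th percentile of the array. The summed intensity of that list was 188819 to 197547 in control and 192541 to 200764 in pregnant samples, against 77238 to 84499 over both cell-line groups. Siglecf, a surface receptor of alveolar macrophages, read 13.14, 13.20 and 13.22 (log2 intensity) in control mice and 4.54, 4.21 and 3.85 in unstimulated cells. Pparg, the lipid-sensing factor that alveolar macrophages need, read 12.58 ± 0.10 (SD, n = 3) in control mice and 6.35 ± 0.08 in unstimulated cells. Other cells were present in the lavage: the summed intensity of 22 epithelial markers was 43640 to 76306 in control and 55005 to 76318 in pregnant samples, against 1226 to 1400 in the line. The summed neutrophil markers spanned 7886 to 23340 in control and 7951 to 13095 in pregnant samples. Both of these sums overlapped between control and pregnant mice. The summed dendritic cell and monocyte markers did not, at 22098 to 23168 in control and 19947 to 21100 in pregnant samples. Of these 14 markers 12 had a negative pregnancy change (median -0.23), none of them called; 8 were above the dim level in lavage, and their part in the pregnancy changes was not tested. In such mixed samples fewer cells of a type and less RNA per cell cannot be told apart.

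Across all genes the 2 measured changes had almost no correlation. Pearson's r between them was 0.037 and Spearman's rho 0.021 over 12393 genes, which are not independent replicates. Among the 1090 genes called for estradiol, the pregnancy change had the same sign as the estradiol change in 549 genes (50.4%), against 6346 (51.2%) of all genes. For the 98 genes that changed at least 2-fold with estradiol, the median size of the estradiol change was 1.31 (log2) and that of the pregnancy change 0.15, against 0.084 over all genes. The sign matched in 50 of these 98. Over all genes the median size of the pregnancy change, 0.084, was close to its median standard error of 0.087. Errors of that size weaken any correlation or match of sign, so a relation between the changes could have been missed.

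All changes are differences of mean log2(intensity + 1), which slightly understates the change of dim genes, and each comes with its standard error (SE) from limma fitted to all 12 arrays. With p-values adjusted over 12393 genes by Benjamini-Hochberg and called under 0.05, 654 genes (5.28% of all) rose and 436 (3.52%) fell with estradiol, while 12 (0.0968%) rose and 6 (0.0484%) fell with pregnancy. Because the spread is shared by all arrays, both changes of a gene have the same SE, with a median of 0.087. Estimated within each source, the median SE was 0.071 for estradiol and 0.088 for pregnancy. The 18 pregnancy calls rest on a spread shared with the cell-line arrays, whose replicates were tighter, with a median within-group SD of 0.090 against 0.110 in lavage. The difference between the changes, the pregnancy change minus the estradiol change, passed the same threshold for 549 genes (4.43%). The pregnancy change was the higher in 274 of these (2.21%) and the lower in 275 (2.22%). The count of 549 became 276, 263, 272, 330 and 280 without unstimulated replicates 1, 2 and 3 and estradiol replicates 1 and 3 in turn.

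Most of the 549 differences lay on the estradiol side. In 245 of these genes only the estradiol change was called and was a rise, and in 201 only the estradiol change was called and was a fall. A further 11 were called for pregnancy alone, 91 for neither change, and Phlda3 for both. The 2 changes had opposite signs in 436 of the 549, including all 91 genes called for neither, and the same sign in 113. The median size of the difference was 0.64 (log2), and 103 genes differed by more than 2-fold. Both sources were above the dim level for 420 of the 549, while 45 were dim in lavage only, 34 in the line only and 50 in both.

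**Figure D1:**
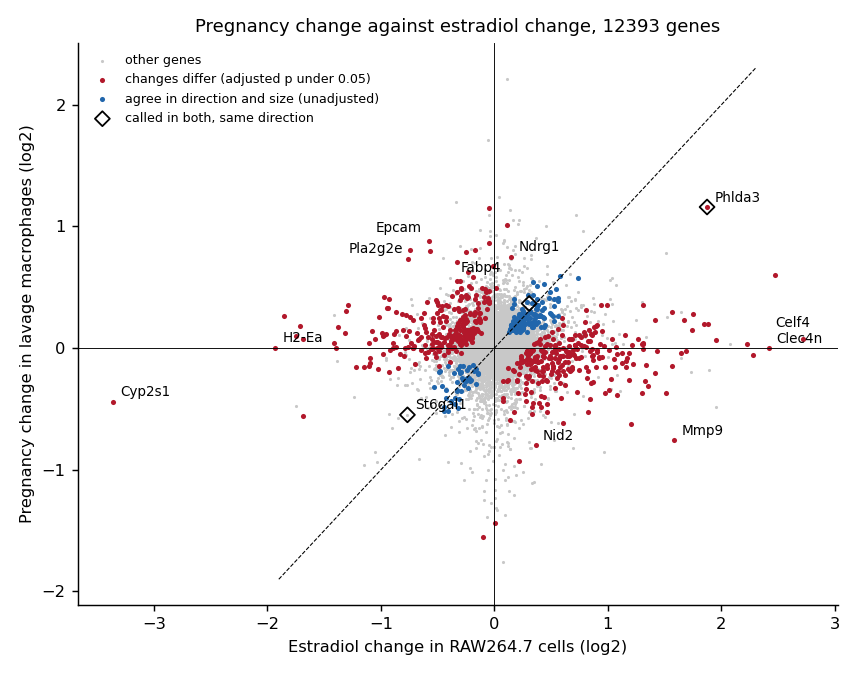
Each point is 1 of 12393 genes, with its estradiol change in RAW264.7 cells on the x axis and its pregnancy change in lavage macrophages on the y axis (both log2); the dashed line marks equal changes. The 549 genes whose changes differed (red) lie mostly along the horizontal axis, where the estradiol change is large and the pregnancy change near 0, and the 3 genes called in both with the same direction are ringed.

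Genes called in both comparisons with the same direction were few, and the one that moved most was Phlda3, a p53-induced gene whose protein restrains AKT signalling at the membrane. Phlda3 read 8.69, 8.57 and 8.58 (log2 intensity) in unstimulated cells and 10.36, 10.64 and 10.46 with estradiol. In lavage it read 9.09, 8.81 and 8.80 in control mice and 9.94, 10.33 and 9.92 in pregnant mice. The treated groups lay above their controls without overlap in both sources. Over all genes the groups did not overlap, in either direction, in 34.8% for estradiol and in 15.7% for pregnancy. Phlda3 rose by 1.87 ± 0.12 (SE) with estradiol (3.66-fold, adjusted p = 7.18e-06) and by 1.16 ± 0.12 with pregnancy (2.23-fold, adjusted p = 0.00586). The pregnancy change was the smaller by 0.71 ± 0.17 (adjusted p = 0.0440), a call lost when any single array other than pregnant replicate 2 was left out, with adjusted p of at most 0.108 over all settings.

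The other 2 genes called in both comparisons with the same direction encode sialyltransferases, enzymes that cap sugar chains with sialic acid in the Golgi. St3gal1, which caps O-linked chains, read 9.29, 9.28 and 9.34 in unstimulated and 9.57, 9.67 and 9.58 in estradiol cells, and 8.98, 9.12 and 9.09 in control and 9.36, 9.43 and 9.50 in pregnant mice. Its changes were 0.31 ± 0.06 and 0.37 ± 0.06, with a 95% interval of the difference from -0.12 to 0.24. The pregnancy call of St3gal1 (adjusted p = 0.0481) was lost when any 1 array other than estradiol replicate 2 or pregnant replicate 1 was left out. St6gal1, which caps N-linked chains and went the other way, read 12.16, 12.15 and 12.14 in unstimulated and 11.38, 11.36 and 11.41 in estradiol cells, and 9.47, 9.62 and 9.33 in control and 8.96, 8.91 and 8.90 in pregnant mice. It fell by 0.77 ± 0.07 with estradiol (adjusted p = 5.71e-05) and by 0.55 ± 0.07 with pregnancy (adjusted p = 0.0136). None of the 4 pairs of groups of these sialyltransferase genes overlapped, but the genes were chosen because both of their changes were called.

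These 3 genes were 0.0242% of all genes, and no gene was called in both comparisons with opposite directions. At an unadjusted limma p under 0.05 in both, 168 genes rose and 62 fell in both, 80 rose with estradiol and were lower in pregnancy, and 119 fell with estradiol and were higher in pregnancy. With the spread estimated separately for each source, the pregnancy changes of Phlda3, St3gal1 and St6gal1 had adjusted p of 0.289, 0.396 and 0.395, and no gene was called in both. The other probe set of St6gal1 had changes of -1.01 and -0.12, and with the mean of both its pregnancy change was -0.33 (adjusted p = 0.205). The count of 3 became 6, 5, 6 and 8 without control replicates 1, 2 and 3 and pregnant replicate 1 in turn.

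A wider set was read as agreeing in direction and size: an unadjusted p under 0.05 in both comparisons, the same sign, and a 95% interval of the difference within 1.5-fold either way. There were 178 such genes (1.44% of all), 131 higher and 47 lower in both, with a median size of 0.29 for estradiol and 0.25 for pregnancy. Agreement in size here means within 1.5-fold, and such a gene can also be called for the difference. Gadd45g met the rule with a called difference of -0.34 (limma, adjusted p = 0.0462). That call was lost when any single array other than control replicate 2 was left out. C1galt1, which builds the core O-linked chain that St3gal1 caps, read 9.34, 9.35 and 9.32 in unstimulated and 9.82, 9.86 and 9.82 in estradiol cells, and 10.23, 10.13 and 10.13 in control and 10.43, 10.46 and 10.43 in pregnant mice. Its groups did not overlap in either source, and its changes were 0.49 ± 0.05 and 0.28 ± 0.05 (adjusted p = 0.000103 and 0.0583). Its other probe set gave 0.03 and -0.17, so the shared direction of C1galt1 rests on 1 probe set. Gtse1, a microtubule-binding cell cycle protein, was higher by 0.73 ± 0.12 and 0.58 ± 0.12.

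Pdia5, a disulfide isomerase of the endoplasmic reticulum, read 10.13, 10.18 and 10.20 in unstimulated and 10.79, 10.65 and 10.74 in estradiol cells, and 8.36, 8.32 and 8.12 in control and 8.67, 8.71 and 8.58 in pregnant mice. Neither pair of groups overlapped, and the changes were 0.56 ± 0.07 and 0.38 ± 0.07. Creld2, a secreted folding factor, was higher by 0.36 ± 0.06 and 0.26 ± 0.06. Of 29 measured genes of the ATF4 and unfolded protein response, 2 (6.90%, against 1.44% of all genes) met the rule for agreement, Creld2 and Manf. Manf is outside the naming rule and was chosen after its values were seen. The share was higher in other lists, as in 2 of 18 fibroblast and endothelial markers (11.1%). It was 2 of 22 (9.09%) for genes of fatty acid uptake, storage and oxidation, so it does not single out the unfolded protein response. Among genes lower in both were Mylip, the ubiquitin ligase that removes the LDL receptor, at -0.48 ± 0.06 and -0.19 ± 0.06, and Cdip1, a proapoptotic p53 target, at -0.31 ± 0.05 and -0.20 ± 0.05, although the other probe set of Cdip1 had a pregnancy change of 0.03. The DNA repair endonuclease gene Apex2 was at -0.35 ± 0.09 and -0.41 ± 0.09. The estradiol change was called for each gene of this class whose 2 changes are given here. The pregnancy change was called for none of them except St3gal1 and St6gal1.

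**Figure D2:**
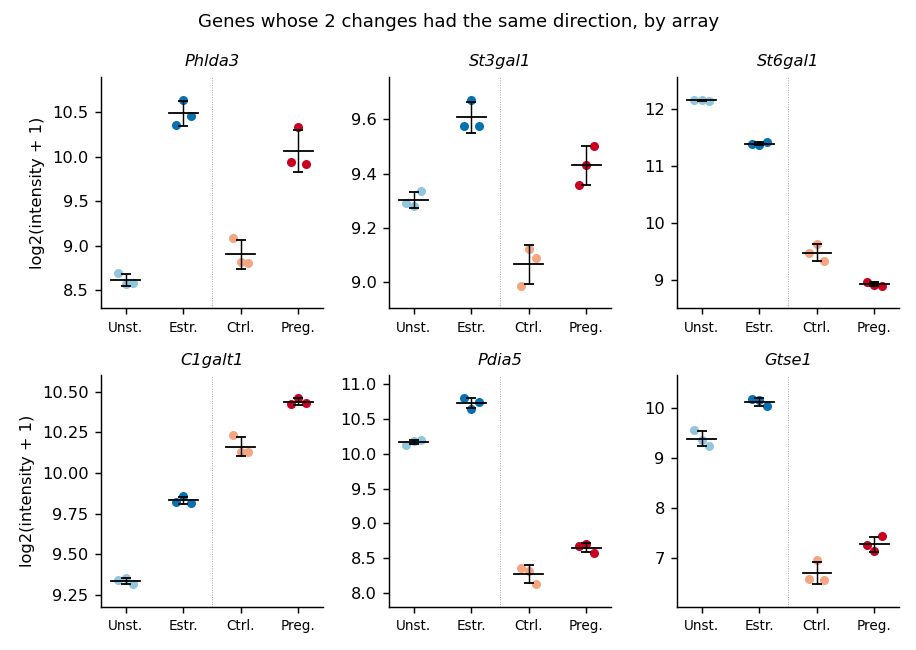
The log2 intensity of 6 genes on each of the 12 arrays: unstimulated (Unst.) and estradiol (Estr.) RAW264.7 cells left of the dotted line, control (Ctrl.) and pregnant (Preg.) lavage right of it; bars give the mean and SD of 3 arrays, and each panel has its own y axis that does not start at 0. In every panel the treated or pregnant arrays lie on the same side of their controls in both sources, as for Phlda3, which moved by 1.87 and 1.16.

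Most genes differed little between the comparisons, and genes dim in a source, whose changes the background limits, are counted among them. Of all 12393 genes 7618 were above the dim level in the line and 7734 in lavage. For 9178 genes (74.1%) the 95% interval of the difference lay within 1.5-fold. That held for all 27 measured cytosolic ribosomal protein genes and for all 30 subunits of oxidative phosphorylation, the mitochondrial chain that makes ATP. The ribosomal genes had median changes of 0.01 with estradiol and -0.01 with pregnancy, and the respiratory subunits -0.08 and 0.03. These small changes were still 1-sided. Of the 30 respiratory subunits 5 had a positive estradiol change, 24 a positive pregnancy change and 25 a positive difference. For the 27 ribosomal genes these counts were 22, 7 and 1, and for all 12393 genes 6804, 7495 and 6497. Among the respiratory genes Sdhb, of complex II, still differed, by 0.29 ± 0.07 (limma, adjusted p = 0.0397), and no other member was called. The call for Sdhb was lost with the arrays at a common median and without any single array other than estradiol replicate 2, while 6 subunits were called with an intensity-dependent robust prior and 5 with array weights.

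Among the lists, cholesterol synthesis and uptake had the largest share of members called for the difference. Cells make sterols through this pathway under control of SREBP2 (gene Srebf2). All 19 measured genes had a negative estradiol change and 17 of them fell, whereas none was called in pregnancy, where 1 had an unadjusted limma p under 0.05. The median change was -0.71 with estradiol and 0.01 with pregnancy. Pmvk, a kinase of the mevalonate pathway, read 12.05, 12.14 and 12.04 in unstimulated and 10.95, 11.004 and 10.95 in estradiol cells, and 11.13, 11.15 and 11.11 in control and 11.11, 11.21 and 11.20 in pregnant mice. The estradiol arrays lay far below the unstimulated ones, while the lavage groups overlapped. Pmvk fell by 1.11 ± 0.05 with estradiol and its pregnancy change was 0.04 ± 0.05, a difference of 1.15 ± 0.07 (adjusted p = 1.95e-05). The difference was called for 12 of the 19 and was positive in all 19, against 2.21% of all genes called in that direction. Mvk, the kinase before Pmvk, differed by 1.07 ± 0.10, and the sterol-processing enzymes Tm7sf2 and Nsdhl by 1.08 ± 0.11 and 0.88 ± 0.09. The count was 11 to 14 when single arrays were left out.

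Promoters of such genes are known to hold the sterol regulatory element bound by SREBP proteins. Promoter windows of RefSeq (GRCm38, from 250 bases before to 50 after each gene's start) were found for 15 of the 19 genes, and the element's core TCACCCCAC was in 1 of them on either strand, against 0.522% of 27025 promoters. That promoter is of Hmgcs1, which makes the precursor of mevalonate, and 150 bases of it are shown here with the core in capitals because the gene moved with its pathway (chr13:119690154-119690303, plus strand, ending 48 bases before the start).
Hmgcs1: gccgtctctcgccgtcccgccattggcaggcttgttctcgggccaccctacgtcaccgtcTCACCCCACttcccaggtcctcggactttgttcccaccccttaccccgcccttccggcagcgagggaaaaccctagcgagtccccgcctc
Hmgcs1 read 13.67, 13.56 and 13.58 in unstimulated and 13.31, 13.39 and 13.38 in estradiol cells, and 13.39, 13.32 and 13.32 in control and 13.27, 13.44 and 13.41 in pregnant mice. It fell by 0.24 ± 0.06 with estradiol (adjusted p = 0.0293), the pregnancy change was 0.03 ± 0.06, and the difference of 0.27 ± 0.08 was not called (adjusted p = 0.101). A match of letters is a description and shows no binding.

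Genes of liver X receptor signalling and sterol efflux diverged in part, and the called members were a receptor, a phospholipid-remodelling enzyme and desaturases. Of 15 measured targets of the liver X receptors, which sense oxysterols and promote efflux and fatty acid desaturation, 4 were called as higher in pregnancy relative to estradiol and none as lower, against 2.21% and 2.22% of all genes. Nr1h3, the gene of one of these receptors, read 8.66, 8.73 and 8.60 in unstimulated and 8.30, 8.59 and 8.41 in estradiol cells, and 9.81, 10.003 and 9.90 in control and 10.27, 10.44 and 10.54 in pregnant mice. Pregnant samples all exceeded control samples, and estradiol samples all lay below unstimulated ones. Its changes were -0.23 ± 0.09 and 0.51 ± 0.09, neither called alone, and they differed by 0.74 ± 0.13 (adjusted p = 0.0103). Lpcat3, which remodels phospholipids, fell by 0.44 ± 0.06 with estradiol and had a pregnancy change of 0.05 ± 0.06 in the other direction, a difference of 0.50 ± 0.08 (adjusted p = 0.00880). Scd1 and Scd2, fatty acid desaturases, differed by 1.36 ± 0.27 and 0.35 ± 0.08. The call for Scd1 was lost without unstimulated replicate 3 or estradiol replicate 3, at an adjusted p of at most 0.0645, and that for Scd2 without most single arrays. The count of 4 fell to 2 without unstimulated replicate 3 or estradiol replicate 3.

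Targets of p53, the factor that answers DNA damage and other stress with arrest or death genes, differed mainly through rises with estradiol. Of 23 measured targets 16 rose with estradiol and none fell, and 1, Phlda3, rose in pregnancy. The median changes were 0.54 and 0.03. The difference was called as lower in pregnancy for 13 of 23, against 2.22% of all genes, and as higher for none. Fas, a death receptor, read 8.30, 8.32 and 8.42 in unstimulated and 10.22, 9.80 and 10.07 in estradiol cells, and 11.29, 10.82 and 10.86 in control and 10.999, 10.89 and 11.01 in pregnant mice. The lavage groups overlapped and lay above both cell-line groups. Fas rose by 1.69 ± 0.13 with estradiol (3.22-fold) and its pregnancy change was -0.02 ± 0.13, a difference of -1.71 ± 0.18 (adjusted p = 0.000563).

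Trp53inp1, a proapoptotic and autophagy cofactor, read 10.92, 10.99 and 11.08 in unstimulated and 12.47, 12.23 and 12.29 in estradiol cells, and 11.96, 11.86 and 11.78 in control and 11.79, 11.77 and 11.64 in pregnant mice. It rose by 1.33 ± 0.08 with estradiol, and the changes differed by -1.47 ± 0.11 (adjusted p = 5.54e-05). Mdm2, the ligase that degrades p53, rose by 0.71 ± 0.06 with estradiol and changed by 0.11 ± 0.06 in pregnancy. Cdkn1a, the p21 cell cycle inhibitor, read 12.11, 12.22 and 12.19 in unstimulated and 12.97, 12.97 and 13.004 in estradiol cells, and 11.68, 11.71 and 11.88 in control and 12.08, 12.09 and 12.05 in pregnant mice. Neither pair of its groups overlapped. Its changes of 0.81 ± 0.06 and 0.31 ± 0.06 had the same sign, the second not called (adjusted p = 0.0689), and they differed by -0.49 ± 0.08 (adjusted p = 0.00963). The count of 13 p53 targets was 8 to 11 when single arrays were left out, and it was 8 without unstimulated replicate 2 and without estradiol replicate 3.

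**Figure D3:**
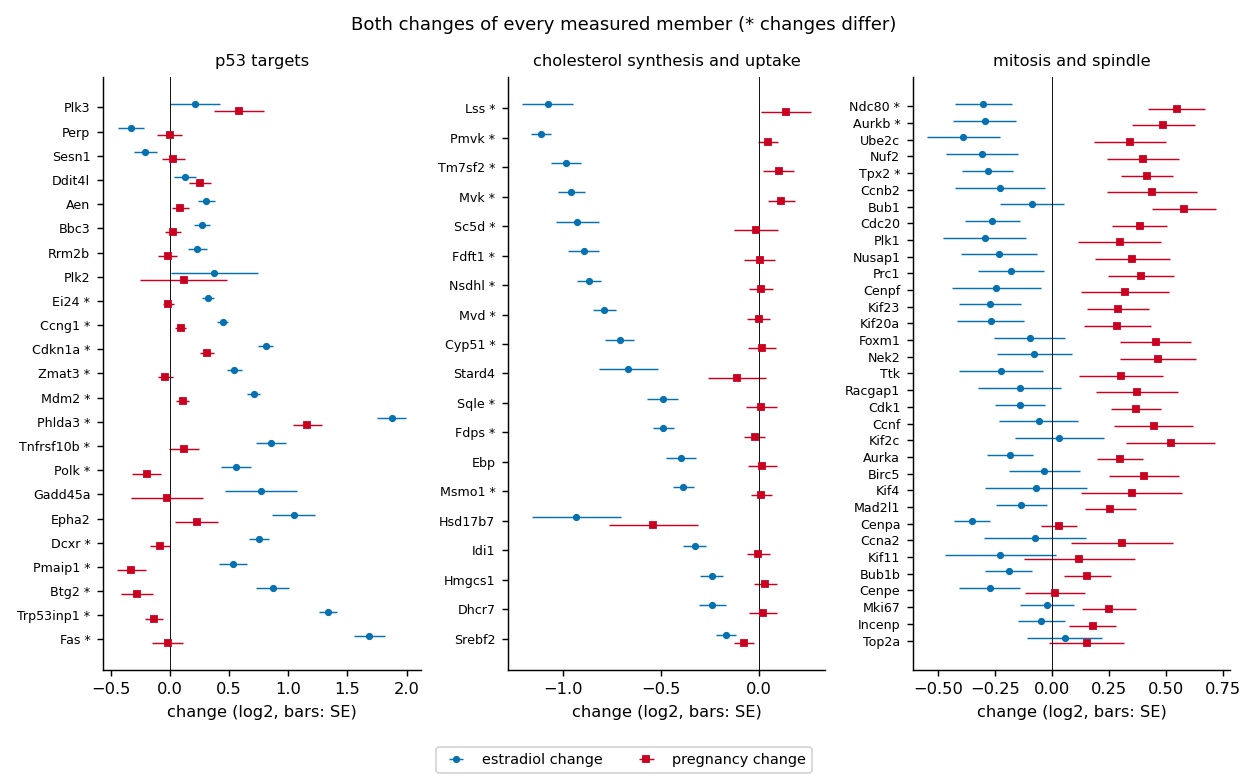
Estradiol change (blue circles) and pregnancy change (red squares) of every measured member of the p53 (23 genes), cholesterol (19) and mitosis (33) lists, in log2 with SE bars; an asterisk marks genes whose changes differed. The red points of the cholesterol list sit near 0 while the blue ones reach -1.11 for Pmvk, and all 33 red points of the mitosis list lie above 0.

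Inflammatory genes under NF-kB, the factor that toll-like and cytokine receptors activate, showed the same one-sided pattern. Of 31 measured genes 12 rose with estradiol, and in pregnancy limma called none and found none at an unadjusted p under 0.05. Their summed intensity spanned 54823 to 81685 in control and 52053 to 74085 in pregnant samples. With so wide a spread a pregnancy change could have been missed. The median changes were 0.47 and -0.03. The difference was called as lower in pregnancy for 6 (2.22% of all genes). Cxcl2, a chemokine that draws neutrophils, read 9.67, 9.84 and 9.75 in unstimulated and 11.997, 11.95 and 11.98 in estradiol cells, and 12.60, 11.53 and 11.69 in control and 12.07, 12.54 and 11.31 in pregnant mice. The estradiol arrays stood 4.67-fold above the unstimulated ones (2.22 ± 0.30), whereas the lavage groups overlapped widely. The shared SE of 0.30 takes in this wide lavage spread. The difference of -2.19 ± 0.43 (adjusted p = 0.0183) was not called without unstimulated replicate 1 (adjusted p = 0.0518).

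The promoter of Cxcl2 is shown because its window held 2 of the NF-kB site forms searched, overlapping on opposite strands. The capitals mark both (chr5:90903742-90903891, GRCm38, plus strand, ending 8 bases before the start).
Cxcl2: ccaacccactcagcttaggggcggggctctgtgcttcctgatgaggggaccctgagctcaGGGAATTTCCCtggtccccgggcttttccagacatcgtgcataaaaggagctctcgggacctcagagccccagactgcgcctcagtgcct
Of 24 NF-kB promoters found in the RefSeq table, 1 held GGGACTTTC, 3 held GGGAATTTC and 2 held GGGAAATTC on either strand, against 0.344%, 0.278% and 0.237% of all 27025 promoters. Nlrp3, the inflammasome sensor, read 9.88, 9.90 and 9.85 in unstimulated and 10.91, 11.06 and 10.91 in estradiol cells, and 10.78, 10.52 and 10.19 in control and 10.70, 10.34 and 10.31 in pregnant mice. The lavage groups overlapped, and the changes of Nlrp3 differed by -1.13 ± 0.19 (adjusted p = 0.00974). Cd40, a costimulatory receptor, differed by -1.35 ± 0.27 (adjusted p = 0.0205), a call lost without unstimulated replicate 2 or estradiol replicate 1 (adjusted p of at most 0.0619). Csf2, the growth factor GM-CSF, differed by -0.92 ± 0.17 but was dim in both sources. The count of 6 was 3 without unstimulated replicate 1 and without unstimulated replicate 2.

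Genes of the ATF4 and unfolded protein response, which restore folding and amino acid supply under stress, had positive median changes in both comparisons. Of 29 measured genes 9 rose with estradiol and limma called none in pregnancy (5 were higher at an unadjusted p under 0.05). The change was positive for 23 with estradiol and for 22 with pregnancy, with medians of 0.20 and 0.11. Over all 12393 genes 6804 estradiol and 7495 pregnancy changes were positive. The difference was called for 4, all lower in pregnancy, against 2.22% of all genes in that direction. Sesn2, a stress-induced inhibitor of mTORC1 signalling, read 8.01, 7.85 and 7.84 in unstimulated and 8.93, 8.81 and 8.999 in estradiol cells, and 8.61, 8.77 and 8.55 in control and 8.62, 8.69 and 8.56 in pregnant mice. Its lavage groups overlapped, and the difference was -1.03 ± 0.11 (adjusted p = 0.000575). Herpud1 and Dnajb9, of degradation and folding in the endoplasmic reticulum, rose by 0.64 ± 0.08 and 0.63 ± 0.08 with estradiol and differed by -0.67 ± 0.11 and -0.66 ± 0.12. Ddit3, the transcription factor CHOP, differed by -0.49 ± 0.10, a call lost without any single unstimulated array, estradiol replicate 1 or 3, or control replicate 3 (adjusted p of at most 0.0757).

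Type I interferon genes, the antiviral set driven by STAT and IRF factors, had median changes of opposite sign. Of 25 measured genes 6 fell and 3 rose with estradiol, limma called none in pregnancy (3 were higher at an unadjusted p under 0.05), and the medians were -0.32 and 0.15. The difference was called as higher in pregnancy for 3, Oas1a, Ifih1 and Rtp4, and as lower for 1, Gbp2, against 2.21% and 2.22% of all genes, so the single lower call is near the background. Oas1a, an enzyme that answers viral double-stranded RNA, read 11.41, 11.47 and 11.27 in unstimulated and 10.81, 10.89 and 10.84 in estradiol cells, and 10.77, 10.84 and 10.76 in control and 10.90, 11.06 and 10.85 in pregnant mice. Its groups did not overlap in either source, and they were ordered in opposite directions. The changes were -0.53 ± 0.07 and 0.15 ± 0.07, the second not called, and they differed by 0.68 ± 0.10 (adjusted p = 0.00350). Ifih1, an RNA sensor, differed by 0.49 ± 0.09 (adjusted p = 0.0144), and Rtp4 by 2.12 ± 0.44. The call for Rtp4 was lost without unstimulated replicate 1 or 2, estradiol replicate 3, or control replicate 2 or 3, and that for Gbp2 without unstimulated replicate 1 or 3 or estradiol replicate 1. The 3 calls became 6 without pregnant replicate 3.

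The interferon response core GAAACNGAA was in 7 of 19 promoters of this list found in the table, on either strand, against 1.92% of all. That of Oas1a is shown with the core in capitals, because Oas1a is the member whose difference was best resolved (chr5:120907476-120907625, GRCm38, minus strand, from 100 bases before the start).
Oas1a: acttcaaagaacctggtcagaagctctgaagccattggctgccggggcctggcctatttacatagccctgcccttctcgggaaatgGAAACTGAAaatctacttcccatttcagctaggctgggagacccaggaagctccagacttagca

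Antigen presentation did not move as one. Of 12 measured class II and costimulation genes, H2-Aa, H2-Ab1 and H2-Ea, which encode the chains that present peptide, were called as higher in pregnancy relative to estradiol. H2-DMa, which loads the peptide, was called as lower. Over all genes 2.21% were called as higher and 2.22% as lower. H2-Ab1 read 8.43, 8.44 and 8.47 in unstimulated and 7.41, 7.60 and 7.49 in estradiol cells, and 11.50, 10.84 and 10.97 in control and 11.32, 11.75 and 11.23 in pregnant mice. Its lavage groups overlapped, and the difference was 1.27 ± 0.24 (adjusted p = 0.0138). H2-DMa rose by 0.56 ± 0.06 with estradiol, changed by -0.19 ± 0.06 in pregnancy, and differed by -0.75 ± 0.09 (adjusted p = 0.00113). H2-Ea differed by 1.93 ± 0.33, but another of its probe sets gave -0.08, and the call for H2-Aa was lost when any single array other than control replicate 1 or pregnant replicate 3 was left out.

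Genes of mitosis and the spindle had opposite median changes, -0.19 with estradiol and 0.35 with pregnancy. All 33 measured members had a positive pregnancy change and 2 a positive estradiol change, against 7495 and 6804 of 12393 genes, yet limma called 1 for estradiol, none for pregnancy (16 at an unadjusted p under 0.05), and 3 for the difference (2.21% of all genes were called in that direction). Mitosis genes are transcribed together in cycling cells, so their members do not move independently. Their summed intensity was 115916 to 117635 in unstimulated and 100769 to 108411 in estradiol cells, which did not overlap. It was 24031 to 29609 in control and 28341 to 40849 in pregnant mice, which did. Ndc80, a kinetochore protein that binds microtubules, read 10.35, 10.36 and 10.42 in unstimulated and 9.996, 10.16 and 10.07 in estradiol cells, and 7.90, 8.35 and 8.25 in control and 8.51, 8.67 and 8.96 in pregnant mice. Neither pair of groups overlapped. Its changes were -0.30 ± 0.13 and 0.55 ± 0.13, neither called, with a difference of 0.85 ± 0.18 (adjusted p = 0.0253).

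The promoter of Ndc80 is shown because it holds the cell cycle homology element TTTGAA, a short motif common near the start of genes expressed in late cell cycle, here on the opposite strand and in capitals (chr17:71526808-71526957, GRCm38, minus strand, from 100 bases before the start).
Ndc80: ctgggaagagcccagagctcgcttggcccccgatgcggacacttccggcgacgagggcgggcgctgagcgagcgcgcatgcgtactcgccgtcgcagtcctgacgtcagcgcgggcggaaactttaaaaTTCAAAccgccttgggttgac
The element was in 20 of the 27 mitosis promoters found, on either strand, against 18.1% of all promoters, and the box CCAAT in 21 of 27 against 37.9%. Aurkb and Tpx2, a mitotic kinase and a spindle assembly factor, differed by 0.78 ± 0.20 and 0.70 ± 0.16 (adjusted p = 0.0486 and 0.0354). The 3 calls are fragile: none of the 33 genes was called without unstimulated replicate 1, 2 or 3 or estradiol replicate 1 or 3, 1 was called without control replicate 3, and 7 and 5 were called without pregnant replicates 1 and 3. Left out together, estradiol replicate 2 and pregnant replicate 2 also left none. These arrays had the largest 3' to 5' signal differences for Gapdh and the transferrin receptor. For beta-actin that held for estradiol replicate 2 only. The DNA replication list had median changes of -0.10 with estradiol and 0.23 with pregnancy, where no member was called. The difference was called for 2 of 31 measured genes, Rfc5 and Gins1, as higher in pregnancy relative to estradiol (2.21% of all genes). Neither was called without unstimulated replicate 2 or 3, and 1 was called without unstimulated replicate 1, estradiol replicate 1 or estradiol replicate 3. The site TTTCCCGC of E2F, the factor that drives such genes, was in 5 of 27 replication promoters against 1.11% of all.

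**Figure D4:**
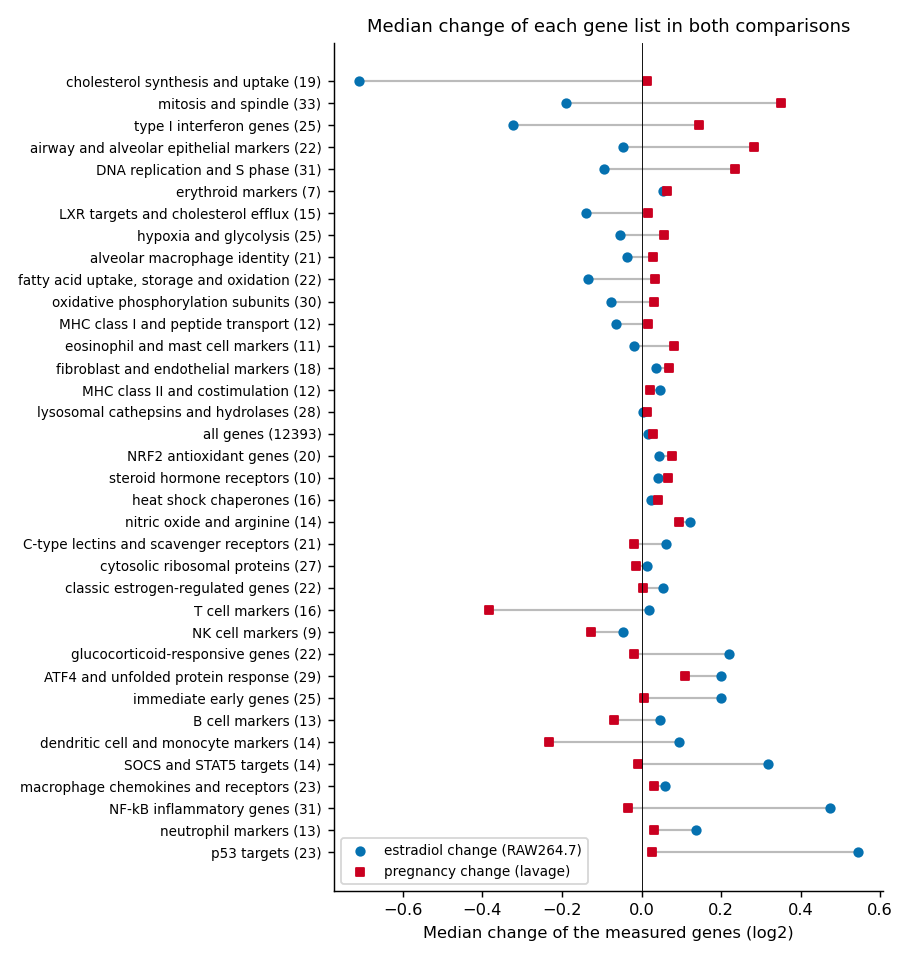
Median estradiol change (blue circles) and median pregnancy change (red squares) of each of 35 gene lists and of all genes, in log2, with the number of measured genes in brackets and lists ordered by the median difference. Cholesterol genes (-0.71 and 0.01) and p53 targets (0.54 and 0.03) lie at opposite ends, and the ribosomal list has both points near 0.

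Among single genes, several of the largest differences were large estradiol changes with little pregnancy change. Cyp2s1, a cytochrome P450, read 9.75, 9.53 and 9.48 in unstimulated and 6.14, 6.39 and 6.14 in estradiol cells, and 6.12, 5.99 and 6.52 in control and 5.70, 5.94 and 5.66 in pregnant mice. It fell 10.3-fold with estradiol (-3.36 ± 0.14), to readings in the range of the lavage arrays. Its pregnancy change was -0.44 ± 0.14, in lavage samples where it was dim, so the background limits both values. The difference was 2.92 ± 0.20 (adjusted p = 2.73e-05). Clec4n, or Dectin-2, a receptor for fungal mannans, read 7.53, 7.70 and 7.47 in unstimulated and 10.09, 9.91 and 9.94 in estradiol cells, and 13.43, 13.24 and 13.29 in control and 13.34, 13.42 and 13.20 in pregnant mice. It rose 5.34-fold in the line (2.42 ± 0.09), while its lavage groups overlapped at a level above both cell-line groups. The difference was -2.42 ± 0.12 (adjusted p = 9.18e-06). Celf4 had a larger negative difference in limma, at -2.65 (adjusted p = 0.000347), which ranged from -2.83 to -1.14 over the alternative settings.

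Arg2, the mitochondrial arginase, read 7.41, 7.46 and 7.45 in unstimulated and 9.29, 9.53 and 9.37 in estradiol cells, and 11.81, 11.49 and 11.75 in control and 11.70, 11.87 and 11.69 in pregnant mice. It rose 3.88-fold with estradiol (1.96 ± 0.09), and the lavage groups overlapped above that level; the difference was -1.89 ± 0.13. Sulf2, a sulfatase that edits heparan sulfate on the cell surface, rose by 2.28 ± 0.10 and differed by -2.34 ± 0.14. Mrc1, the mannose receptor, and Ctsh, a lysosomal cathepsin, rose by 0.71 ± 0.07 and 1.31 ± 0.16 in the line and changed by 0.03 ± 0.07 and -0.01 ± 0.16 in pregnancy. In the other direction Fabp3, a fatty acid carrier, fell by 1.29 ± 0.15 with estradiol, while its pregnancy change was positive at 0.36 ± 0.15. Nos1, a nitric oxide synthase, fell by 1.75 ± 0.13 with a pregnancy change of 0.10 ± 0.13 in the other direction, from a level above the dim mark on 1 of 6 cell-line arrays.

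Many genes raised by estradiol were already brighter in the lavage cells. Of the 246 genes that rose with estradiol and whose changes differed, 186 (75.6%) had a higher mean in control lavage than in unstimulated cells, against 42.7% of all genes. In 136 (55.3%) the control lavage mean was also above that of the estradiol cells, against 40.4% of all genes. Among all 654 genes that rose with estradiol these shares were 66.5% and 46.2%. The unstimulated mean also enters the estradiol change, so such shares are not independent of how the genes were selected. Of the 201 that fell with estradiol and differed, 71 (35.3%) were brighter in control lavage than in unstimulated cells, against 42.7% of all genes. In 104 (51.7%) the control lavage mean was above that of the estradiol cells, against 40.4% of all genes. Among all 436 genes that fell with estradiol these shares were 38.1% and 55%. The part of this resting level in the differences was not tested.

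**Figure D5:**
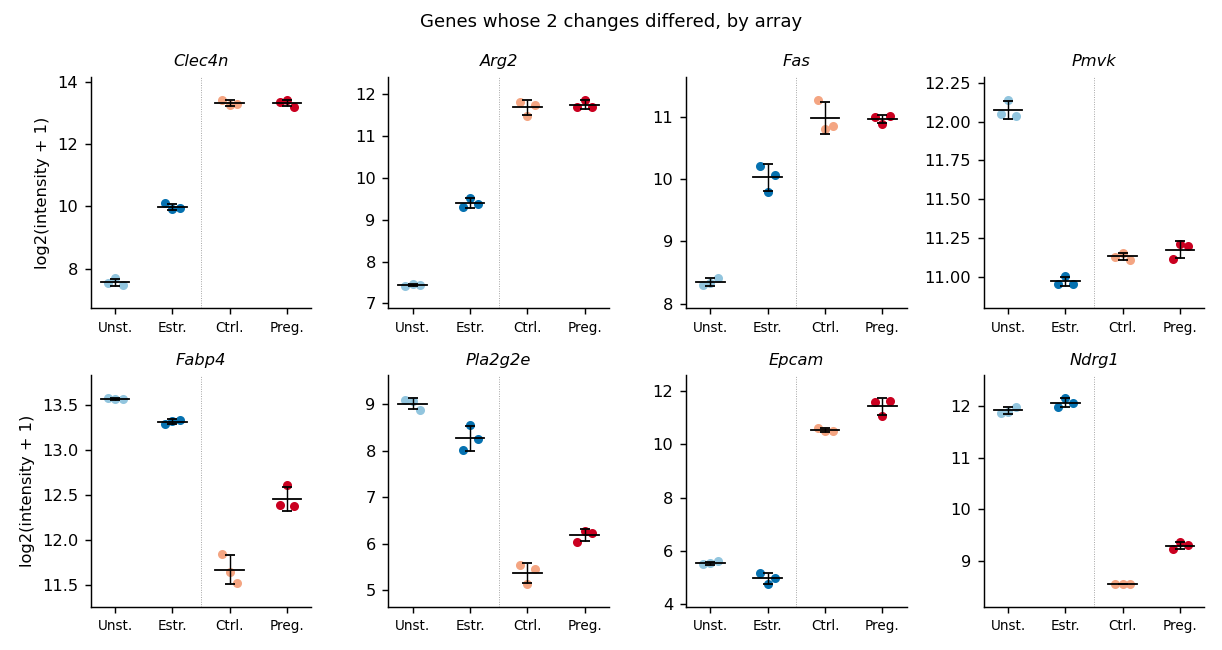
The log2 intensity of 8 genes whose changes differed, on each of the 12 arrays, grouped and marked as unstimulated (Unst.), estradiol (Estr.), control (Ctrl.) and pregnant (Preg.), with the mean and SD of 3 arrays; y axes differ between panels and do not start at 0. Clec4n, Arg2 and Fas rose and Pmvk fell in the line with overlapping lavage groups, whereas Fabp4, Pla2g2e and Epcam were lower with estradiol and higher with pregnancy, without overlap.

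A smaller set moved mainly in pregnancy. Its pregnancy calls rest on the spread shared with the cell-line arrays, whose replicates were tighter. Fabp4, the fatty acid binding protein of lipid-laden macrophages, read 13.58, 13.57 and 13.56 in unstimulated and 13.29, 13.32 and 13.34 in estradiol cells, and 11.85, 11.65 and 11.52 in control and 12.39, 12.62 and 12.38 in pregnant mice. Its 2 pairs of groups were ordered in opposite directions without overlap. It rose by 0.79 ± 0.09 with pregnancy (1.73-fold, adjusted p = 0.00586), its estradiol change was -0.25 ± 0.09 (adjusted p = 0.101), and they differed by 1.04 ± 0.12 (adjusted p = 0.000925). Ndrg1, a gene induced by low oxygen and by hormones, read 11.88, 11.90 and 11.99 in unstimulated and 11.99, 12.17 and 12.06 in estradiol cells, and 8.54 in all 3 control and 9.22, 9.36 and 9.30 in pregnant mice. It rose by 0.75 ± 0.06 with pregnancy (adjusted p = 0.00116; 0.115 in a fit of the 6 lavage arrays alone), and its changes differed by 0.60 ± 0.08. Another of its 5 probe sets gave a difference of 0.055.

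Nid2, a basement membrane protein, fell by 0.80 ± 0.11 with pregnancy against an estradiol change of 0.36 ± 0.11, a difference of -1.16 ± 0.16 (adjusted p = 0.00279), but it was dim in both sources. Of the 11 differing genes called for pregnancy alone, 8 rose and 3 fell. Csrp1, a LIM-domain protein of the actin skeleton, and Rab34, a GTPase of membrane traffic, are examples above the dim level in both sources, chosen after their values were seen. Csrp1 rose by 0.49 ± 0.07 with pregnancy against 0.02 ± 0.07 with estradiol, and Rab34 by 0.42 ± 0.06 against -0.09 ± 0.06; their differences were 0.48 ± 0.10 and 0.51 ± 0.09. Of 25 measured hypoxia and glycolysis genes, 1, Ndrg1, was called in pregnancy. Ndrg1, Bnip3 and Adm were called as higher in pregnancy relative to estradiol (2.21% of all genes) and none as lower. Bnip3, a mitophagy receptor, and Adm, the peptide adrenomedullin, did so through falls of 0.55 ± 0.07 and 1.02 ± 0.19 with estradiol, and the call for Adm was lost without estradiol replicate 3, control replicate 2 or 3, or pregnant replicate 3.

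Other opposed pairs of changes included genes dim in one source. Pla2g2e, a secreted phospholipase, read 9.09, 9.08 and 8.88 in unstimulated and 8.01, 8.55 and 8.26 in estradiol cells, and 5.54, 5.13 and 5.46 in control and 6.04, 6.28 and 6.23 in pregnant mice, where it was dim. Its groups were ordered oppositely without overlap, at -0.74 ± 0.14 and 0.81 ± 0.14, a difference of 1.55 ± 0.20 (adjusted p = 0.00210). Epcam, the epithelial adhesion molecule, read 5.50, 5.54 and 5.61 in unstimulated and 5.18, 4.75 and 4.99 in estradiol cells, where it was dim, and 10.62, 10.50 and 10.51 in control and 11.59, 11.06 and 11.62 in pregnant mice. Its changes of -0.58 ± 0.14 and 0.88 ± 0.14 differed by 1.46 ± 0.20 (adjusted p = 0.00318). Of the 22 epithelial markers 19 had a positive pregnancy change, with a median of 0.28, and 1, Epcam, was called for the difference. The part of epithelial cells in these values was not tested. Sult1a1, which sulfates small phenols, had changes of -0.76 ± 0.20 and 0.74 ± 0.20 and differed by 1.49 ± 0.28.

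Genes tied to estrogen itself were called in few cases. Esr1, the main estrogen receptor gene, was dim in both sources, with readings of 4.20, 4.13 and 4.14 in unstimulated, 4.23, 4.39 and 4.16 in estradiol, 4.04, 4.16 and 4.30 in control and 4.19, 4.08 and 4.23 in pregnant samples. All 4 groups overlapped near this floor, and its changes were 0.10 ± 0.08 and 0.00 ± 0.08. Esr2 and the progesterone receptor gene Pgr were dim on all arrays as well, and limma called none of 10 steroid hormone receptor genes for the difference, with none at an unadjusted p under 0.05 either. Of these 10 genes 4 were above the dim level in the line and 5 in lavage. Of 22 measured classic estrogen-regulated genes, none met the rule for agreement, which 1.44% of all genes met, and 1 each was called in either direction, near the background of 2.21% and 2.22%. Only 12 of the 22 were above the dim level in the line and 11 in lavage, so changes of the others could have been missed. Their summed intensity was 36492 to 38458 in unstimulated and 39684 to 41527 in estradiol cells, and 46012 to 47169 in control and 47250 to 48776 in pregnant mice. These sums, which the brightest members dominate, were higher without overlap in both sources, while the median changes were 0.05 and 0.00 and 13 of 22 were positive in each. Stc2, a secreted calcium regulator, fell by 0.61 ± 0.09 with estradiol against a change of 0.16 ± 0.09 in pregnancy, a difference of 0.77 ± 0.12 (adjusted p = 0.00601). Nrip1, a corepressor of nuclear receptors, read 9.28, 9.27 and 9.28 in unstimulated and 9.59, 9.51 and 9.59 in estradiol cells, and 11.87, 11.96 and 11.79 in control and 11.73, 11.48 and 11.54 in pregnant mice. It rose by 0.28 ± 0.07 with estradiol and its pregnancy change was -0.29 ± 0.07, without overlap in either source; they differed by -0.57 ± 0.10 (adjusted p = 0.0102), a call lost with the mean of its probe sets (adjusted p of at most 0.115).

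Glucocorticoids also rise in pregnancy, and genes that answer them were called on the estradiol side. Of 22 measured, 7 rose and 1 fell with estradiol, limma called none in pregnancy (2 were higher and 1 lower at an unadjusted p under 0.05), and Cebpd, Dusp1 and Cdkn1a were called as lower in pregnancy relative to estradiol (2.22% of all genes). Cebpd, a transcription factor of acute responses, read 10.09, 10.05 and 10.08 in unstimulated and 10.57, 10.71 and 10.67 in estradiol cells, and 10.96, 10.96 and 11.10 in control and 10.96, 10.71 and 10.88 in pregnant mice. Its lavage groups overlapped, and its changes of 0.58 ± 0.07 and -0.16 ± 0.07 differed by -0.73 ± 0.10 (adjusted p = 0.00293). The count of 3 became 5 without pregnant replicate 2. STAT5 is the factor behind prolactin and GM-CSF signals. Of 14 measured SOCS genes and STAT5 targets, 4 rose (5.28% of all genes) and 1 fell (3.52%) with estradiol, and none was called in pregnancy. Cish, Pim1 and Ccnd2 were called as lower in pregnancy relative to estradiol (2.22% of all genes). Cish, a feedback inhibitor of cytokine receptors, had changes of 0.40 ± 0.11 and -0.45 ± 0.11, neither called, in a gene dim in the line, and differed by -0.85 ± 0.16 (adjusted p = 0.0143). The call for Pim1, a survival kinase, was lost without unstimulated replicate 2, and likewise when its probe sets were averaged (adjusted p of at most 0.194). That for Ccnd2, a D-type cyclin, was lost with quantile normalization and without any single array other than unstimulated replicate 1 or pregnant replicate 3. Without unstimulated replicate 2 both were lost, which left 1 called target in the list.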

How the data were processed

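Total RNA of 12 samples was hybridised to Affymetrix mouse arrays. The deposited values are 1 linear intensity per probe set and array, made with RMA per the submitters' processing notes, with no version stated (background correction, quantile normalization and probe summary), so log2(intensity + 1) was taken here. Of 22690 probe sets, 64 controls, 691 with several symbols and 1555 with none were left out. Of a gene's probe sets the one with the highest mean was kept, which left 12393 genes. No detection calls came with the deposited values; the number of arrays limits the precision.

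limma 3.58.1 under R 4.3.3 (lmFit, eBayes with a constant prior) fitted 4 group means to all 12 arrays, whose shared spread (8 residual degrees of freedom) serves the estradiol change, the pregnancy change and their difference. Tests were two-sided with Benjamini-Hochberg adjustment. The fits were tested on simulated data. Tables and figures were made with Python 3.11.15 (matplotlib 3.10.9, numpy 2.4.6, pandas 2.3.3) and data.table (release 1.17.8). Promoters came from RefSeq (GRCm38.p6); probe positions were not used.

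The naming rule took up to 12 genes with the largest called differences per direction and up to 12 per direction called in both. It added up to 8 agreeing genes per direction, up to 4 members of each of 35 lists, and receptors and synthases. Some of these genes are not named in the text, but all enter the closing counts of named genes. The comparison and lists were chosen with earlier results of these data known, so they are no independent support. Of 796 list entries 693 were measured. Alternatives are in the closing section.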

Additional observations from a re-analysis of the deposited data

How the results depend on the processing

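The count of differing genes (549 as reported) was 1394 with array weights and 169 at an adjusted p under 0.01, and it lay between 263 and 573 when single arrays were left out. It was 562 with quantile normalization, 440 with arrays shifted to a common median, 702 among 8165 genes left by a filter on dim genes and 665 over 20380 probe sets. Genes called in both changes with the same direction (3 as reported) were 6 with an intensity-dependent robust prior, 10 with array weights, 0 with a separate spread per source, 2 with a common median, 2 with probe sets averaged, 1 at an adjusted p under 0.01, 1 without estradiol replicate 2 and pregnant replicate 2, and 2 to 8 when single arrays were left out. Genes called in both with opposite directions (0 as reported) were 2 with quantile normalization, 1 with a common median, 2 with the filter on dim genes, 2 with the mean of all probe sets, 4 with the robust prior, 8 with array weights, 3 without estradiol replicate 2 and pregnant replicate 2, and 0 to 9 when single arrays were left out. Genes that agreed in direction and size (178 as reported) were 290 with array weights and 123 to 202 when single arrays were left out; the other alternatives moved these counts by less than 1.5 times. Leaving out the pseudocount gave 543 differing genes. Of 84 named genes called for the difference, 51 stayed called under every alternative at the same threshold and 33 were lost under 1 or more, 9 of them only when an array was left out; 34 of the 87 not called were called under 1 or more. No named difference that was called changed sign, while 13 of the 87 not called took both signs over the alternatives. The median differences of the cholesterol, p53, NF-kB, interferon, ATF4, mitosis and replication lists kept their sign in every alternative run, and that of class II genes did not. No paired analysis was possible because the labels give no replicate numbers that tie samples across groups. Genes dim in a source, such as Csf2, Nid2, Pla2g2e in lavage and Epcam in the line, have changes that the background limits.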

Other observations

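Both sialyltransferase genes called in the 2 comparisons raised the question of how other glycosylation genes behaved, and a list of 57 such genes was chosen after these values were seen. Of 48 measured, 6 rose (5.28% of all genes) and 2 fell (3.52%) with estradiol. In pregnancy 2 were called, St3gal1 and St6gal1, the genes that prompted the list. Over all genes 0.0968% rose and 0.0484% fell in pregnancy. Both median changes of the list were 0.02. C1galt1 rose with estradiol and was higher in pregnancy as given above, on 1 of its 2 probe sets. Galnt3, which starts O-linked chains, rose by 1.05 ± 0.09 with estradiol against a pregnancy change of -0.09 ± 0.09, a difference of -1.14 ± 0.12 (limma, adjusted p = 0.000582). It was dim on all cell-line arrays, with means of 4.33 and 5.38, and its 3 probe sets gave estradiol changes from -0.18 to 1.05 and differences from -1.14 to 0.15. Slc35a1, the transporter that brings activated sialic acid into the Golgi, rose by 0.31 ± 0.06 with estradiol against -0.04 ± 0.06. St8sia4, which builds polysialic acid, had an estradiol change of 0.07 ± 0.08 and a pregnancy change of -0.41 ± 0.08, and the difference of -0.48 ± 0.12 was called (adjusted p = 0.0452).

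Lymphocyte markers were mostly dim in lavage: 5 of 16 T cell, 3 of 13 B cell and 1 of 9 NK cell markers were above the dim level there, and limma called none in pregnancy. Of 16 measured T cell markers 12 had a negative pregnancy change, with a median of -0.38, and 8 had an unadjusted limma p under 0.05; none was called for the difference. Their summed intensity was 13088 to 15337 in control and 12698 to 13481 in pregnant samples. Cd3e, a chain of the T cell receptor complex, read 7.68, 8.46 and 6.69 in control and 6.50, 7.005 and 6.08 in pregnant mice, so the groups overlapped. It was dim on all cell-line arrays, where such a change could not be measured.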
